A study of Homo sapiens with 6 samples.

Results

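Genes of sterol and fatty acid synthesis under the control of SREBP (sterol regulatory element-binding protein) were followed in HaCaT cells, an established human keratinocyte line that became immortal in culture without an added oncogene. The group held 40 genes, chosen by name for their place in cholesterol synthesis, the SREBP machinery, sterol uptake and transport, or fatty acid synthesis. All 40 were found among the 46287 rows of the deposited count table. RNA was sequenced from 3 libraries of homozygous SDR42E1-knockout cells, made with CRISPR/Cas9, and 3 libraries of wild-type control cells. SDR42E1 is a short-chain dehydrogenase/reductase, linked by the study to vitamin D, and the comparison asks which transcripts differ once it is lost. Both groups grew as monolayers in DMEM with 4.5 g/L glucose and 10% fetal bovine serum and were harvested at 70% to 80% confluency. The labels call the 3 libraries of a group biological replicates but do not say whether they came from separate cultures, or whether the knockout was 1 clone or several, so a p-value here reflects only the spread among these samples, which may be technical.

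SREBPs are made as membrane proteins of the endoplasmic reticulum. When sterol is scarce, SCAP carries them to the Golgi, where proteases release the part that enters the nucleus and switches on genes of sterol and fatty acid synthesis; when sterol is plentiful, INSIG proteins hold SCAP and SREBP back. The SREBF2 product acts mainly on sterol genes and the SREBF1 product more on fatty acid genes. In skin the pathway also feeds vitamin D: the substrate of DHCR7, its last reductase, is the sterol that sunlight converts to the vitamin.

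Library totals ran from 11504473 to 13454544 counts in the knockout group and from 12094896 to 16928201 in the control group. SDR42E1 itself had 23.2, 20.1 and 20.7 CPM (counts scaled to library size by TMM) in knockout libraries, against 46.8, 47.6 and 48.8 CPM in control libraries. It was lower in the knockout (log2 fold change -1.16, SE 0.08, edgeR adjusted p = 2.69e-14), and its RNA was still present. Its 32 tested neighbours within 5 Mb on chromosome 16 were also lower in the knockout, 32 of them below 0, with a median log2 fold change of -0.72, so SDR42E1 differed from their median by -0.45. All 8 keratinocyte markers were detected, with a sum of 6851 to 7158 CPM in knockout and 7140 to 7645 CPM in control libraries. The sums hide opposite changes of single markers. Of the 8 markers, 6 passed the edgeR test, where 50.4% of all tested genes passed. ITGB4 (log2 fold change 0.76), KRT17 (0.66), SFN (0.45) and TP63 (0.25) rose, KRT5 (-0.66) and PKP1 (-0.44) fell, and KRT14 and DSP did not pass. Their part in the other results was not tested. Markers of other cell types were scarce: the 5 fibroblast markers summed to 1.12 to 1.92 CPM in knockout and 3.90 to 5.61 CPM in control libraries, the 3 adipocyte markers to at most 0.262 and 0.636 CPM, and the 3 hepatocyte markers to at most 0.350 and 0.144 CPM. The 4 melanocyte markers summed to 1.40 to 2.81 CPM in knockout and 3.07 to 3.25 CPM in control libraries, the 4 leukocyte markers to 0.152 to 0.432 and 0.504 to 0.579 CPM, and the 3 endothelial markers to 1.92 to 2.66 and 3.65 to 3.93 CPM. Of the markers, 2 of 3 for adipocytes, 2 of 3 for hepatocytes, 2 of 4 for leukocytes, 1 of 4 for melanocytes and 1 of 5 for fibroblasts had no count in any library; the part of these low levels in the results was not tested. In bulk RNA, fewer cells of a type and less RNA per cell cannot be told apart.

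SREBPs act beside the factors NF-Y and Sp1 on promoters, so the stretch of 250 bases before the outermost RefSeq start of each gene (GRCh38.p14) was read for their motifs, on both strands. Of the 40 genes, 36 had an entry. The letters TCACNCCAC, a strict spelling of the sterol regulatory element, were found for 1 of the 36, SREBF2, and for 0.821% of 9870 tested genes with an entry. That stretch is shown first, with the motif in capitals, at chr22:41832962-41832991 on the plus strand.
SREBF2: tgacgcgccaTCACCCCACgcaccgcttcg

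The NF-Y box CCAAT stood before 21 of the 36 genes (58.3%), against 35.7% of tested genes, and the Sp1 box GGGCGG before 31 (86.1%), against 67.4%. By direction, 10 of 17 genes that rose, 3 of 8 that fell and 8 of 11 that did not pass the test held the NF-Y box. These counts depend on the start chosen: over every RefSeq start listed for a gene, a choice made after seeing the data, they were 12 of 17, 5 of 8 and 8 of 11, in all 69.4% of the 36 genes against 42.2% of tested genes, since DHCR7, IDI1, ACACA and GGPS1 hold the box before an inner start. To show where the boxes lie in genes that moved opposite ways, stretches of 100 bases follow for the 3 highest and the 3 lowest fold changes among changed genes that held a box and whose stretch met no GENCODE exon, with each box in capitals as CCAAT or, on the other strand, ATTGG. STARD4 (chr5:111512632-111512731, minus strand), MSMO1 (chr4:165327510-165327609, plus) and INSIG1 (chr7:155297658-155297757, plus) rose in the knockout. MVD (chr16:88663163-88663262, minus), MYLIP (chr6:16128947-16129046, plus) and ACLY (chr17:41919023-41919122, minus) fell.
STARD4: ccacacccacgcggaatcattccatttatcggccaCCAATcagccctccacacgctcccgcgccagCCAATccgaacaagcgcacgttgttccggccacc
MSMO1: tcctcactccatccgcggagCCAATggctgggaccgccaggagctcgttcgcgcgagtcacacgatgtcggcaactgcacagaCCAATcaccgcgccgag
INSIG1: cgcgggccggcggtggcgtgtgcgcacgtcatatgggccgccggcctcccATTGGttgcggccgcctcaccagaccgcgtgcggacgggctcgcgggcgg
MVD: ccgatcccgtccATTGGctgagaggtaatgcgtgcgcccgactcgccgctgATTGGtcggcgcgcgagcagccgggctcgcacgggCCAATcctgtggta
MYLIP: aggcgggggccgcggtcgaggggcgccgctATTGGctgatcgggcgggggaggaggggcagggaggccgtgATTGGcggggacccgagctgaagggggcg
ACLY: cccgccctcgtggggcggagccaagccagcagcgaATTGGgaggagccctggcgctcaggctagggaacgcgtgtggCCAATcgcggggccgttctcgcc

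Only genes that held a box were shown, so finding boxes in both kinds of gene follows from that choice. MVD holds 3 in its stretch, and STARD4, MSMO1, MYLIP and ACLY hold 2 each. MVD, MYLIP and ACLY were the only 3 of the 8 genes that fell with a box before the outermost start, against 10 of 17 that rose. GGPS1, SREBF1, ACACA, FADS1 and ME1 fell and held none there. A match is a string of letters and not a measured binding site.

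More of the pathway was higher than lower in knockout cells. Of the 40 genes, all of which passed the filter on low counts, 20 rose, 8 fell and 12 did not pass. Among all 12293 genes tested, 50.4% were called, 24.6% higher and 25.8% lower in the knockout, so calls were common throughout. The median log2 fold change was 0.14 over the 40 genes and -0.004 over all tested genes. The 2 groups of libraries did not overlap in 27 of the 40 genes, 19 higher and 8 lower in the knockout, and in 56.5% of all tested genes. The highest values were those of STARD4 (1.34), HMGCS1 (1.19) and MSMO1 (0.91), which stood 128th, 173rd and 294th from the top of all tested genes.

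**Figure D1:**
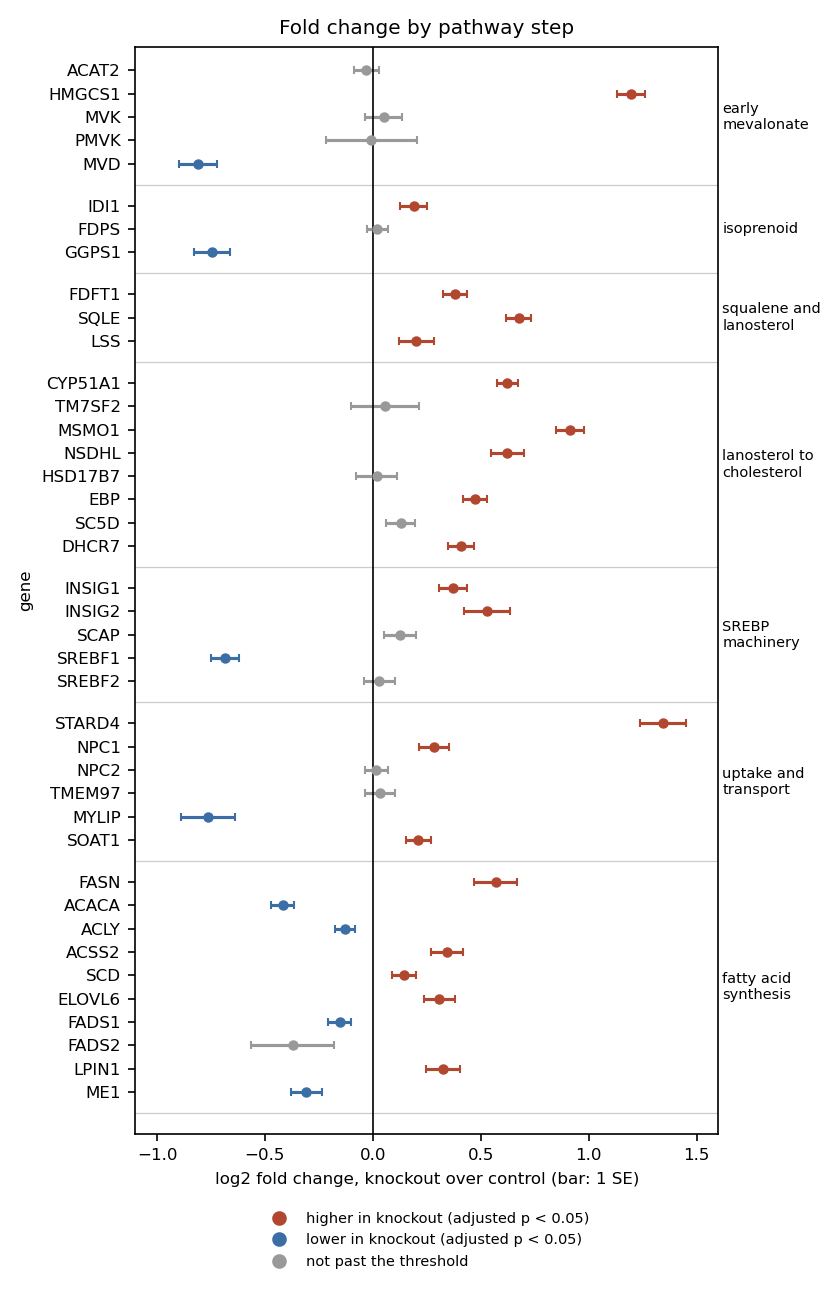
Log2 fold change of each of the 40 genes, knockout over control (x axis; bars are 1 SE of the fit to 3 libraries a group), grouped by pathway step down the page. STARD4 (1.34) and HMGCS1 (1.19) lie farthest to the right and MVD (-0.81) farthest to the left. All 11 enzymes of the group in the squalene, lanosterol and cholesterol steps lie above 0, the lowest at 0.02. LBR, outside the group, is not drawn.

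The early mevalonate steps were split between 1 strong rise and 1 fall. HMGCS1 (chr5:43289395-43313512) joins acetoacetyl-CoA and acetyl-CoA to make the precursor of mevalonate. Its level was 161, 133 and 140.5 CPM in knockout libraries, against 67.0, 61.7 and 60.9 CPM in control libraries. The lowest knockout library lay far above the highest control library. The log2 fold change was 1.19 (SE 0.06, edgeR adjusted p = 7.12e-16). MVD decarboxylates mevalonate diphosphate to the isoprene unit that all later products share. Its level was 22.6, 27.0 and 23.7 CPM in knockout libraries, against 45.05, 39.5 and 44.8 CPM in control libraries. Here the knockout libraries were all the lower ones, and the log2 fold change was -0.81 (SE 0.09, edgeR adjusted p = 7.95e-10). ACAT2, the thiolase that starts the pathway, had 93.4, 94.2 and 94.1 CPM in knockout libraries, against 97.0, 92.3 and 98.6 CPM in control libraries (log2 fold change -0.03, SE 0.06, edgeR adjusted p = 0.688). MVK, mevalonate kinase, had 39.6, 39.3 and 31.8 CPM in knockout libraries, against 35.5, 34.6 and 37.1 CPM in control libraries (log2 fold change 0.05, SE 0.09, edgeR adjusted p = 0.651). Both had overlapping groups, as did PMVK, the next kinase, with a log2 fold change of -0.01 (edgeR adjusted p = 0.983). PMVK had only 46 to 58 counts per knockout library and 58 to 75 per control library, which leaves an SE of 0.21. The exons of ACAT2 overlap those of SOD2-OT1 on the other strand over 33.9% of their length. They also meet those of SOD2 and TCP1 there, so the counts of ACAT2 are less certain. SOD2-OT1 held 0 counts in every library, SOD2 1762 to 1937 in knockout and 1733 to 2439 in control libraries. TCP1 held 8568 to 10295 counts in knockout and 8470 to 12081 in control libraries.

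At the isoprenoid branch point 1 gene rose, 1 fell and 1 did not pass. IDI1, the isomerase of the isoprene unit, had 106, 89.0 and 92.2 CPM in knockout libraries, against 86.4, 81.1 and 84.2 CPM in control libraries. The groups did not overlap, by a narrow gap, and the first knockout library was the highest. Its log2 fold change of 0.19 (SE 0.06, edgeR adjusted p = 0.011) became 0.12 (edgeR adjusted p = 0.141) without knockout replicate 1 and 0.16 (edgeR adjusted p = 0.0665) without control replicate 2, with edgeR, DESeq2 or limma adjusted p of 0.00361 to 0.141 over all alternatives. FDPS, which makes farnesyl diphosphate, had 182, 184 and 175 CPM in knockout libraries, against 181, 181 and 169.995 CPM in control libraries, with overlapping groups (log2 fold change 0.02, SE 0.05, edgeR adjusted p = 0.752). GGPS1 (chr1:235327350-235344532) extends farnesyl diphosphate to the lipid used for protein prenylation. It had 27.9, 24.6 and 23.8 CPM in knockout libraries, against 44.7, 40.4 and 42.9 CPM in control libraries. That is a clear separation, with a log2 fold change of -0.74 (SE 0.09, edgeR adjusted p = 2.84e-09). Its exons overlap those of TBCE on the same strand over 37.3% of their length and also meet those of ARID4B on the other strand, so its counts are less certain. No row of the count table is named TBCE. ARID4B held 620 to 749 counts in knockout and 933 to 1341 counts in control libraries.

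All 3 enzymes that commit farnesyl diphosphate to sterols rose. FDFT1, squalene synthase, had 153, 147 and 142 CPM in knockout libraries, against 120.2, 115 and 105 CPM in control libraries. SQLE, squalene epoxidase, had 127, 121 and 126 CPM in knockout libraries, against 81.6, 80.2 and 72.2 CPM in control libraries. In neither gene did the groups overlap. The log2 fold changes were 0.38 for FDFT1 (SE 0.05, edgeR adjusted p = 3.05e-07) and 0.68 for SQLE (SE 0.06, edgeR adjusted p = 2.07e-12). LSS closes the rings to make lanosterol. It had 43.8, 46.0 and 38.4 CPM in knockout libraries, against 36.3, 39.98 and 35.1 CPM in control libraries. The third knockout library lay below the second control library, so the groups overlapped. LSS passed only just (log2 fold change 0.20, SE 0.08, edgeR adjusted p = 0.0376); the call was lost on leaving out knockout replicate 1 or 2 or control replicate 1 or 3, at log2 fold changes of 0.15 to 0.19 and edgeR adjusted p of 0.0944 to 0.193, and adjusted p over all alternatives ran from 0.0070 to 0.193.

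From lanosterol to cholesterol 5 of the 8 enzymes in the group rose, and the other 3 did not pass. LBR, a reductase outside the group that does the same step as TM7SF2, fell (log2 fold change -0.59, SE 0.05, edgeR adjusted p = 1.47e-11). Its mean was 149 CPM in knockout and 223 CPM in control libraries, against 8.53 and 8.21 CPM for TM7SF2. CYP51A1, which removes the first methyl group of lanosterol, had 226, 217 and 214 CPM in knockout libraries, against 150.4, 137 and 139 CPM in control libraries. MSMO1 (chr4:165327623-165343160) oxidizes the next methyl groups and had 99.1, 88.6 and 101 CPM in knockout libraries, against 55.0, 48.5 and 49.5 CPM in control libraries. Both genes were higher in each knockout library than in any control library. Their log2 fold changes were 0.62 (SE 0.05, edgeR adjusted p = 4.62e-13) and 0.91 (SE 0.07, edgeR adjusted p = 2.63e-14). CYP51A1 shares 79.4% of its exon length with another annotated gene on the same strand, AC000120.2. No row of the count table has that name, so whether reads of CYP51A1 were split or lost is not known. NSDHL, the dehydrogenase that completes removal of those methyl groups and a short-chain dehydrogenase like SDR42E1, had 48.9, 54.8 and 56.7 CPM in knockout libraries, against 36.1, 34.0 and 34.2 CPM in control libraries. EBP, the isomerase that moves the ring double bond, had 159.8, 164 and 145 CPM in knockout libraries, against 115, 109 and 115 CPM in control libraries. The knockout libraries were again the 3 higher ones in both genes, with log2 fold changes of 0.62 (SE 0.08, edgeR adjusted p = 1.30e-08) and 0.47 (SE 0.05, edgeR adjusted p = 2.31e-09).

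SC5D makes the sterol precursor of vitamin D, and DHCR7 turns that precursor into cholesterol. DHCR7 rose, with 89.1 ± 4.84 CPM in knockout and 67.1 ± 2.31 CPM in control cells (SD, n = 3 each; log2 fold change 0.41, SE 0.06, edgeR adjusted p = 7.38e-07). SC5D had 77.0, 71.5 and 74.7 CPM in knockout libraries, against 60.7, 69.0 and 74.5 CPM in control libraries. The control libraries were spread widely and reached the knockout values, and the log2 fold change of 0.13 (SE 0.07) did not pass (edgeR adjusted p = 0.111). Without control replicate 3 it did, at 0.20 (edgeR adjusted p = 0.0312; 0.0312 to 0.547 over all alternatives). TM7SF2, a reductase of the ring, and HSD17B7, a ketosteroid reductase and short-chain dehydrogenase, had log2 fold changes of 0.06 (SE 0.16) and 0.02 (SE 0.10).

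**Figure D2:**
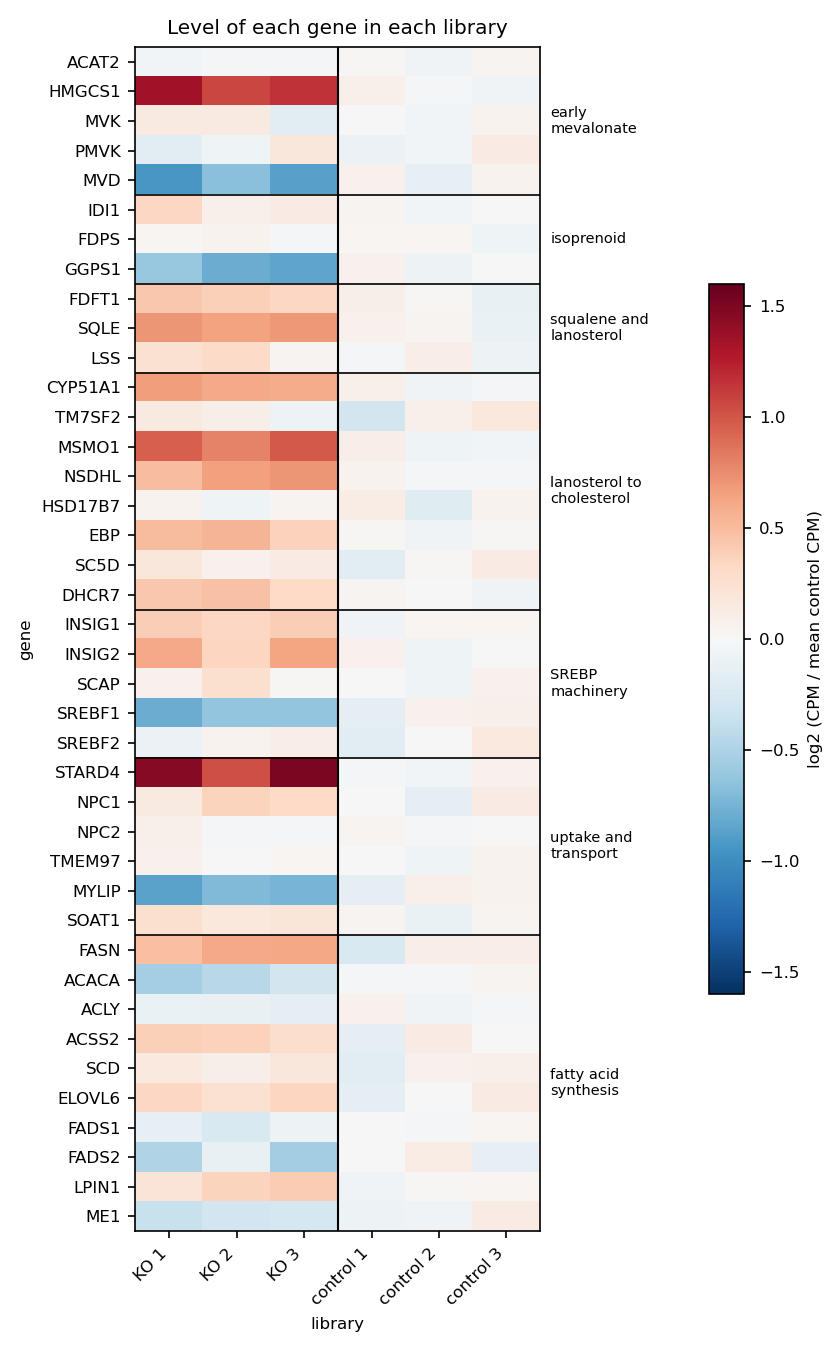
Level of each gene (rows, grouped by pathway step) in each of the 6 libraries (columns, the 3 knockout libraries left of the 3 control libraries), as log2 of CPM over the mean control CPM; red is higher and blue lower. STARD4 and HMGCS1 are the darkest red rows in all 3 knockout libraries, with STARD4 palest in knockout library 2 (37.2 CPM, against 50.2 and 51.9 in the other two).

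Within the SREBP machinery the retention proteins rose, SREBF1 fell and SREBF2 and SCAP did not pass. INSIG1 and INSIG2 encode the proteins that hold SREBP in the endoplasmic reticulum, and INSIG1 is itself a target of SREBP. INSIG1 had 68.8, 66.0 and 68.9 CPM in knockout libraries, against 50.3, 53.4 and 53.5 CPM in control libraries. INSIG2 had 23.6, 19.7 and 24.0 CPM in knockout libraries, against 16.3, 14.8 and 15.5 CPM in control libraries. Neither gene's groups overlapped, and the log2 fold changes were 0.37 for INSIG1 (SE 0.07, edgeR adjusted p = 9.84e-06) and 0.53 for INSIG2 (SE 0.11, edgeR adjusted p = 8.48e-05). SREBF1, which encodes the SREBP of fatty acid genes, had 78.9, 87.9 and 88.0 CPM in knockout libraries, against 122, 143 and 145 CPM in control libraries. Its lowest control library was well above its highest knockout library, with a log2 fold change of -0.69 (SE 0.06, edgeR adjusted p = 3.11e-10). SREBF2 had 61.4, 68.4 and 70.9 CPM in knockout libraries, against 58.6, 65.3 and 73.1 CPM in control libraries. These ranges lay over one another (log2 fold change 0.03, SE 0.07, edgeR adjusted p = 0.756). SCAP, the escort, had 51.4, 58.6 and 49.9 CPM in knockout libraries, against 49.0, 46.7 and 51.4 CPM in control libraries (log2 fold change 0.13, SE 0.07, edgeR adjusted p = 0.154). Its groups overlapped too.

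Genes of sterol uptake and transport held 3 rises, the highest of the 40 among them, and 1 fall. STARD4 (chr5:111496033-111512590) carries sterol through the cytosol between membranes. It had 50.2, 37.2 and 51.9 CPM in knockout libraries, against 17.9, 17.8 and 19.2 CPM in control libraries. Even the lowest knockout library was well above the highest control level, and the log2 fold change was 1.34 (SE 0.11, edgeR adjusted p = 1.70e-10). MYLIP encodes a ubiquitin ligase that marks lipoprotein receptors for breakdown. It had 9.51, 10.6 and 10.2 CPM in knockout libraries, against 15.4, 18.2 and 17.9 CPM in control libraries. The groups stood apart, with a log2 fold change of -0.76 (SE 0.12, edgeR adjusted p = 2.79e-06). NPC1, which exports cholesterol from lysosomes, rose slightly, with 69.95, 81.4 and 78.8 CPM in knockout libraries, against 63.2, 57.4 and 69.4 CPM in control libraries (log2 fold change 0.28, SE 0.07, edgeR adjusted p = 0.00119). SOAT1, which esterifies cholesterol for storage, had 107, 101 and 103 CPM in knockout libraries, against 93.2, 83.7 and 93.2 CPM in control libraries (log2 fold change 0.21, SE 0.06, edgeR adjusted p = 0.00273). The groups were apart in both genes, by a very small gap in NPC1. Without control replicate 2, SOAT1 was at 0.16 (edgeR adjusted p = 0.0540; 0.000649 to 0.0540 over all alternatives). The lysosomal carrier NPC2 and TMEM97, a membrane protein that binds NPC1, had log2 fold changes of 0.02 and 0.03 that did not pass.

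Fatty acid genes split evenly, with 5 up, 4 down and FADS2 not past the threshold. ACACA and FASN do successive work, the first making malonyl-CoA and the second building palmitate from it, and they moved in opposite directions. ACACA had 151, 162 and 180.3 CPM in knockout libraries, against 217, 216 and 227 CPM in control libraries. FASN had 241, 262.15 and 266 CPM in knockout libraries, against 146, 186 and 186 CPM in control libraries. No library of 1 group reached the other group in either gene. The log2 fold changes were -0.42 for ACACA (SE 0.05, edgeR adjusted p = 4.93e-08) and 0.57 for FASN (SE 0.10, edgeR adjusted p = 0.00226); in FASN, control library 1 lay well below the other two. ACLY, which makes cytosolic acetyl-CoA from citrate, had 364, 360.0 and 351 CPM in knockout libraries, against 412, 375 and 388 CPM in control libraries. ACSS2, which makes it from acetate, had 57.1, 56.3 and 53.3 CPM in knockout libraries, against 39.7, 48.0 and 43.4 CPM in control libraries. Neither gene's groups overlapped: ACLY was lower (log2 fold change -0.13, SE 0.05, edgeR adjusted p = 0.0224) and ACSS2 higher (0.34, SE 0.07, edgeR adjusted p = 0.000214). The ACLY call was lost without control replicate 1 or 3 (-0.09 and -0.13, edgeR adjusted p = 0.148 and 0.0539; 0.00513 to 0.148 over all alternatives).

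Among the genes that modify fatty acids, ELOVL6 and the desaturase SCD were higher and the desaturase FADS1 lower. ELOVL6 lengthens palmitate and had 66.4, 62.5 and 66.9 CPM in knockout libraries, against 47.6, 52.9 and 57.7 CPM in control libraries. Its groups did not overlap (log2 fold change 0.31, SE 0.07, edgeR adjusted p = 0.000386). ME1, a source of NADPH for fatty acid synthesis, had 47.2, 49.1 and 50.03 CPM in knockout libraries, against 57.3, 58.3 and 66.1 CPM in control libraries. It was lower throughout (log2 fold change -0.31, SE 0.07, edgeR adjusted p = 0.000405). LPIN1, a phosphatidate phosphatase, was at 43.9 ± 3.198 CPM in knockout and 35.0 ± 1.06 CPM in control cells (SD, n = 3 each; log2 fold change 0.33, SE 0.08, edgeR adjusted p = 0.000713).

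SCD makes oleate from stearate and had 753, 717 and 764 CPM in knockout libraries, against 598, 709.6 and 715 CPM in control libraries. The control libraries came close to the knockout ones except for the first, and the log2 fold change was 0.14 (SE 0.06, edgeR adjusted p = 0.0378). Without control replicate 1 it was 0.06 (edgeR adjusted p = 0.308), and without knockout replicate 1 or 3 it was 0.14 and 0.13 (edgeR adjusted p = 0.109 and 0.281; 0.00508 to 0.308 over all alternatives). FADS1, a desaturase of polyunsaturated fatty acids, had 117, 109 and 122 CPM in knockout libraries, against 129, 126 and 132 CPM in control libraries. This small gap gave a log2 fold change of -0.15 (SE 0.05, edgeR adjusted p = 0.0168), and the call was lost without knockout replicate 2 or control replicate 3 (-0.11 and -0.14, edgeR adjusted p = 0.13 and 0.0775; 0.00466 to 0.13 over all alternatives). FADS2 lies beside FADS1 on chromosome 11 and shares exonic sequence with it on the opposite strand, over 4.44% of its exon length. Its exons also overlap those of FEN1 on the same strand, so its counts are less certain. FEN1 held 2635 to 3258 counts in knockout and 2547 to 3467 counts in control libraries. FADS2 had 47 to 73 counts in knockout libraries and 68 to 113 in control libraries. Its groups overlapped in CPM, with a log2 fold change of -0.37 (SE 0.19, edgeR adjusted p = 0.109).

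Added up by step over the genes of the group, the sums differed most for the late sterol enzymes. The 8 enzymes from lanosterol to cholesterol summed to 736, 721 and 708 CPM in knockout libraries, against 519.6, 495 and 512 CPM in control libraries, a ratio of means of 1.42. A sum of CPM weighs most the genes with the most counts. Here these were CYP51A1 (mean 219 CPM in knockout, 142 in control) and EBP (156 and 113). LBR, outside the group, acts in the same step and was not summed (mean 149 CPM in knockout, 223 in control). The ratio of 1.42, and its rank as the largest, apply to these 8 enzymes alone. The 3 enzymes of squalene and lanosterol summed to 324, 315 and 307 CPM in knockout libraries, against 238, 235 and 212 CPM in control libraries (ratio 1.38). In both steps the lowest knockout sum lay above the highest control sum. The early mevalonate step had a ratio of 1.26, with HMGCS1 its 1 rise, and uptake and transport one of 1.14. The isoprenoid step (0.991), the SREBP machinery (0.926) and fatty acid synthesis (1.04) had overlapping sums. The 40 genes together took 0.407% to 0.419% of all counts in knockout libraries and 0.371% to 0.391% in control libraries.

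**Figure D3:**
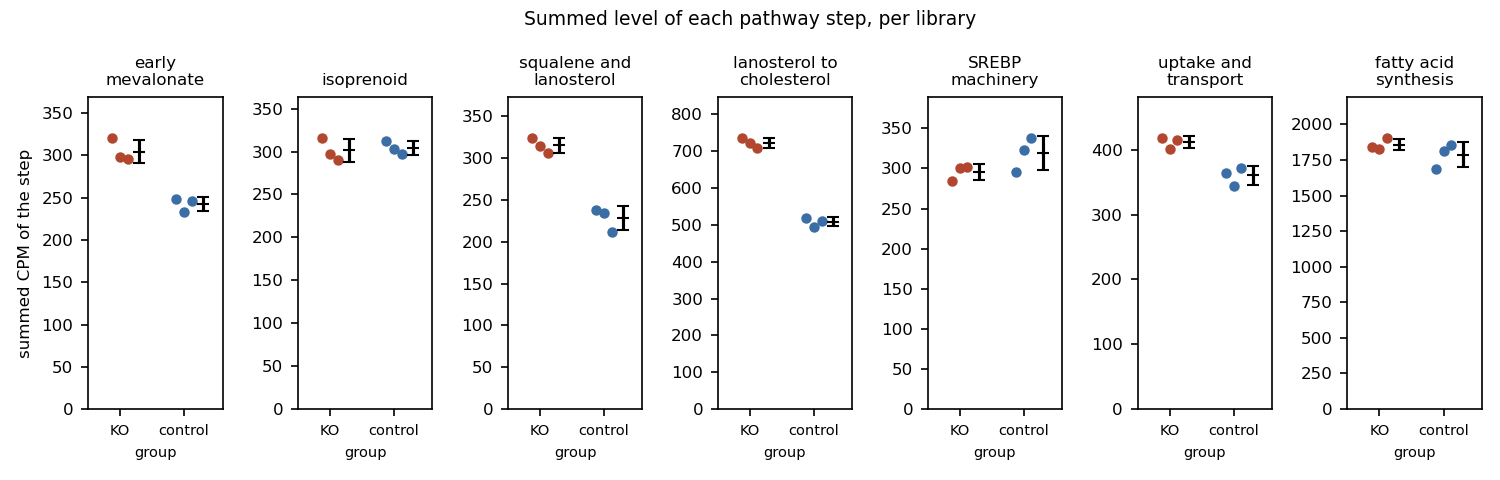
Summed CPM of the genes of each pathway step (1 panel a step, y axis from 0) in each library; points are libraries, and the black bar beside them is the mean and 1 SD of 3 libraries. The knockout points lie above all control points for early mevalonate, squalene and lanosterol, lanosterol to cholesterol, and uptake and transport.

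Ratios of 2 genes within a library need no scaling between libraries. SREBF2 over SREBF1 was 0.779, 0.778 and 0.806 in knockout libraries, against 0.480, 0.456 and 0.506 in control libraries. HMGCS1 over MVD was 7.13, 4.91 and 5.93 in knockout libraries, against 1.49, 1.56 and 1.36 in control libraries. For both pairs the groups were far apart, by 0.71 and 2.01 in mean log2 ratio. All 6 pairs were chosen with earlier results known, and every pair holds a gene or genes already called above. Their ratios are therefore not separate evidence. SQLE over LSS differed by 0.48 and SCD over FASN by -0.43 in mean log2 ratio, again without overlap. With 3 libraries against 3 the exact two-sided permutation test cannot go below p = 0.1, which these 4 pairs reached (adjusted p = 0.15 over the 6 pairs). INSIG1 over INSIG2 (difference -0.15, exact p = 0.2) and FADS2 over FADS1 (-0.23, exact p = 0.3) overlapped between groups, with adjusted p = 0.24 and 0.3 by the same permutation test.

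**Figure D4:**
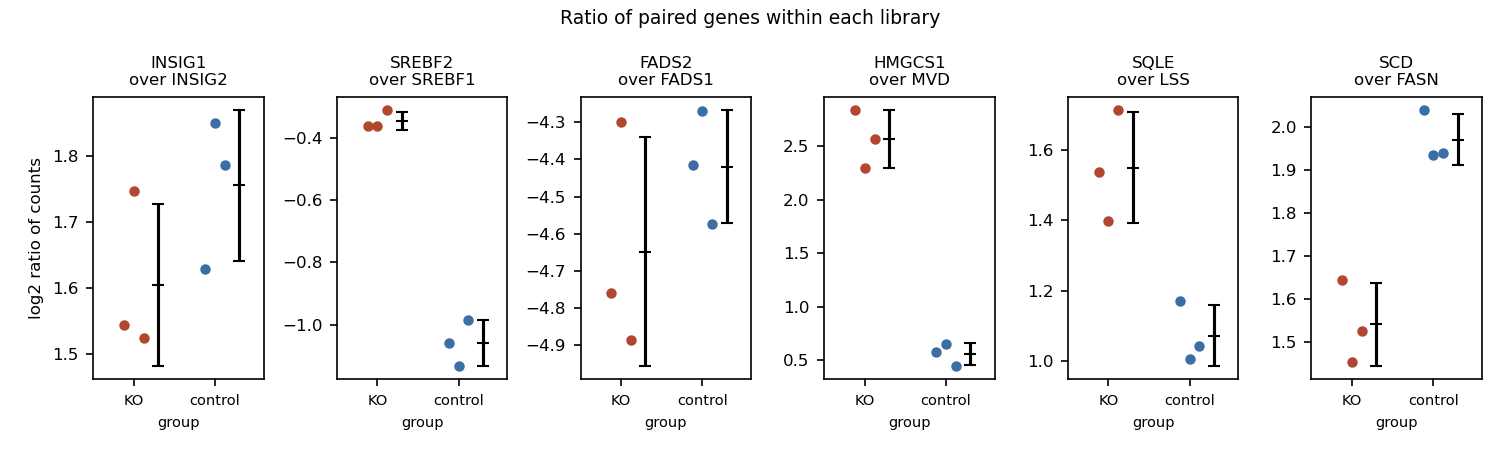
Log2 ratio of the counts of paired genes within each library (1 panel a pair, each with its own y axis); points are libraries, and the black bar is the mean and 1 SD of 3 libraries. The knockout points lie above all control points for SREBF2 over SREBF1, HMGCS1 over MVD and SQLE over LSS, and below them for SCD over FASN.

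Levels can be set beside one another only per length, here as CPM per kilobase of merged GENCODE exons (RPKM). By the mean over all 6 libraries SCD had the highest level, 139 ± 4.55 RPKM in knockout and 126 ± 12.3 RPKM in control cells, and ACLY the next, 68.7 ± 1.28 RPKM in knockout and 75.1 ± 3.58 RPKM in control cells. EBP followed with 64.9 ± 4.05 RPKM in knockout and 46.8 ± 1.41 RPKM in control cells, and CYP51A1 with 61.1 ± 1.76 and 39.7 ± 2.02 RPKM in knockout and control cells (SD, n = 3 each throughout). FDPS came next with 48.5 ± 1.35 RPKM in knockout and 47.8 ± 1.77 RPKM in control cells, and NPC2 with 44.2 ± 1.71 RPKM in knockout and 43.7 ± 1.07 RPKM in control cells. The order of these 4 genes differed in control cells, where FDPS and EBP lay within 1 SD of each other and both FDPS and NPC2 lay above CYP51A1. In the middle of the order, FASN (18.4 ± 2.496), SQLE (18.1 ± 1.18), MSMO1 (17.6 ± 1.20) and NSDHL (17.4 ± 0.566) did not differ beyond their spread in control cells, and in knockout cells MSMO1 had the highest mean of these 4, 33.2 ± 2.26 RPKM. SREBF1 stood at 10.6 ± 0.655 RPKM in knockout and 17.01 ± 1.57 RPKM in control cells, and SREBF2 at 8.85 ± 0.654 RPKM in knockout and 8.69 ± 0.960 RPKM in control cells. The lowest was FADS2, at 0.423 ± 0.0701 RPKM in knockout and 0.547 ± 0.0462 RPKM in control cells. Merged exons include those of rare transcripts, so genes with many isoforms read low.

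Some of these genes lie on parts of chromosomes where tested genes were mostly below 0 in this contrast, so each was set beside the median log2 fold change of the other tested genes within 5 Mb of its start (GENCODE 29, GRCh38). For 9 of the 40 that median was under -0.2. MVD (chr16:88651935-88663161), on the chromosome of SDR42E1, had 57 tested neighbours, 57 of them below 0, with a median of -0.69 beside its own -0.81. ACACA and ACLY on chromosome 17 had neighbour medians of -0.67 and -0.43 beside their own -0.42 and -0.13. MVD was thus close to its neighbours, and ACACA and ACLY were less low than theirs; for ACACA the difference of 0.25 became -0.06 with a window of 10 Mb. SREBF1 (chr17:17810399-17837002) was lower than its neighbours, at -0.69 beside -0.29. SOAT1, the 1 gene of the 9 that rose, had 0.21 beside -0.27. PMVK, FDPS and HSD17B7 on chromosome 1 and TMEM97 on chromosome 17 did not pass, with values of -0.01 to 0.03 beside neighbour medians of -0.35 to -0.28.

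The other 31 genes held 19 rises and 4 falls. Among all tested genes 24.6% rose and 25.8% fell. Those shares include genes on the lowered parts of chromosomes, so they are not a matched background for the 31. GGPS1 sat just inside the limit, with a neighbour median of -0.20 beside its own -0.74. MYLIP, ME1 and FADS1 fell among neighbours whose medians were above 0, at 0.18, 0.003 and 0.06. For the 3 largest rises the neighbour medians were also above 0, at 0.16 around STARD4, 0.15 around HMGCS1 and 0.10 around MSMO1. Over all 40 genes the median difference from neighbours was 0.29, and 29 lay above their neighbours. From lanosterol to cholesterol the median difference was 0.41, with 7 of 8 above. The share of all tested genes that lay above their neighbours was not counted. The part of chromosome position in these values was not tested, and windows of nearby genes share neighbours.

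**Figure D5:**
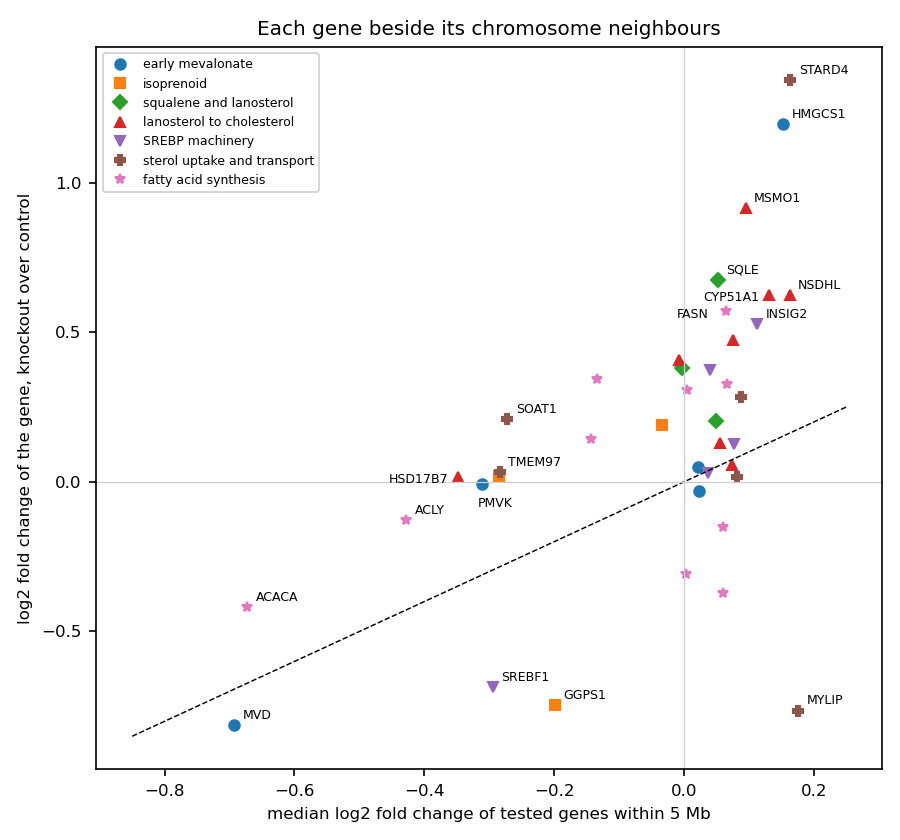
Log2 fold change of each of the 40 genes (y axis, knockout over control) against the median log2 fold change of the tested genes within 5 Mb of its start (x axis); symbols give the pathway step, and the dashed line marks equal values. MVD (-0.81 beside -0.69) lies close to the line at lower left, SREBF1, GGPS1 and MYLIP lie well below it, and STARD4, HMGCS1 and MSMO1 well above.

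A further list of 40 genes of sterol and fatty acid metabolism outside the group held more falls than rises. It had 38 tested genes, with 6 up, 13 down and 19 not past the threshold; its share of calls, 50%, is near the 50.4% of all tested genes. The list had a median log2 fold change of -0.06. MBTPS1, the first protease that cuts SREBP in the Golgi, had 60.5, 59.5 and 57.9 CPM in knockout libraries, against 119, 119 and 129 CPM in control libraries. All knockout libraries were far below all control libraries (log2 fold change -1.04, SE 0.06, edgeR adjusted p = 2.65e-17), and its 48 tested neighbours on chromosome 16 had a median of -0.67. LBR, a sterol reductase of the nuclear envelope that does the same step as TM7SF2, was at 149 ± 12.1 CPM in knockout and 223 ± 7.20 CPM in control cells (SD, n = 3 each), a log2 fold change of -0.59 (SE 0.05, edgeR adjusted p = 1.47e-11), beside a neighbour median of -0.29. NR1H3, an oxysterol receptor, was at 6.31 ± 0.493 CPM in knockout and 14.8 ± 0.384 CPM in control cells (SD, n = 3 each; log2 fold change -1.22, SE 0.14, edgeR adjusted p = 2.23e-09), where neighbours had a median of -0.03. The rises were led by ACSL4, which activates polyunsaturated fatty acids, at 168 ± 4.48 CPM in knockout and 87.3 ± 7.79 CPM in control cells (SD, n = 3 each; log2 fold change 0.94, SE 0.06, edgeR adjusted p = 1.89e-16). ELOVL1 and HSD17B12, of very-long-chain elongation, rose by 0.59 (SE 0.05, edgeR adjusted p = 1.92e-11) and 0.34 (SE 0.06, edgeR adjusted p = 3.41e-05) on the log2 scale.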

How the data were processed

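Gene-level raw counts were deposited by the authors as a single table, a column per library. Per the labels' protocols, TRIzol RNA went into stranded total-RNA libraries. The submitters' processing notes name GRCh38; aligner, counter and strand setting were not stated in the labels or file header. Reads of genes with overlapping exons (20 of the 40 genes, 3 over more than 30% of their length) may therefore be shared.

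Counts were tested over all genes with edgeR 4.0.16 (R 4.3.3): filterByExpr (minimum count 10, total 15), TMM scaling, robust quasi-likelihood F test, two-sided, no block, Benjamini-Hochberg adjusted over 12293 genes, threshold 0.05. Each SE was taken from the fold change and its F statistic. Replicates of a group differed beyond counting noise, with chi-square over its degrees of freedom between 2.65 and 4.49. Alternatives were DESeq2 1.42.0, voom in limma 3.58.1, other scalings and filters, a replicate block, a threshold of 0.01 and each library left out. Of tested genes, 12087 had a GENCODE 29 position. Promoter sequences are RefSeq's.

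The genes, lists and pairs were chosen with earlier results of these data known. Values per library were given, by rule, for up to 4 genes a step with the smallest adjusted p and every gene that fell; FASN, SCD, SC5D and SREBF2 were added after their values were seen. Outside the group, the 3 smallest adjusted p in each direction are named.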

Additional observations from a re-analysis of the deposited data

How the results depend on the processing

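Under other tools, scalings and filters, and on leaving out 1 library, 25 to 28 genes of the group passed (23 at a threshold of 0.01), against 28, with 17 to 20 up and 6 to 8 down; in all, 5338 to 6425 genes passed, against 6197. Of the 28 changed genes, 22 kept direction and call in all 13 settings run on each gene, and 0 reversed. LSS also lost its call with DESeq2, limma-voom and upper-quartile scaling, and SCD with the last. Upper-quartile scaling put 2671 of its calls higher and 3478 lower, against 3022 and 3175. Sign changes were seen only in genes not past the threshold, and their cause was not tested: with upper-quartile scaling FDPS was at -0.00887, HSD17B7 at -0.0123 and NPC2 at -0.0134, and on leaving out 1 library PMVK ran from -0.108 to 0.0669, FDPS from -0.00839 to 0.0466, TM7SF2 from -0.0675 to 0.144, HSD17B7 from -0.0775 to 0.0843, SREBF2 from -0.0428 to 0.11, NPC2 from -0.0123 to 0.0371 and TMEM97 from -0.000869 to 0.0635. Deviations of libraries with the same number were correlated by 0.02, -0.09 and -0.01, which gives no pairing; under the replicate block, 28 genes of the group, 18 of the other list and 6425 in all passed. Of the genes that fell, 5 rather than 3 of 8 held an NF-Y box when every listed RefSeq start was read. Another alternative, also chosen after seeing the data, kept the 31 genes with a neighbour median between -0.2 and 0.2. Of these, 23 passed, where 50.4% of all tested genes passed, those on lowered parts of chromosomes included. Neighbour differences moved by more than the replicate SD in 19 of 80 cases with windows of 2 or 10 Mb. The comparison of protein sequences was not run.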
